A study of Homo sapiens with 6 samples.

Results

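The neuropilins, semaphorins and plexins form a guidance system of secreted and membrane ligands and their receptors, here measured by RNA-seq in HCT116 cells. Its genes were selected by symbol: NRP1, NRP2, every protein-coding semaphorin named SEMA with a digit and a letter, and every plexin named PLXN A to D with a digit. This gave 31 of the 58395 genes listed in each file. Of these, 2 were neuropilins, 20 semaphorins and 9 plexins. The family was chosen from an earlier reading of the same libraries in which NRP1 was among the most decreased genes, so the values of NRP1 are given as a description and carry no test. Members with a mean level of at least 0.5 TPM over the 6 libraries are called expressed, and this selection used the level only. TPM is a level per unit of transcript length, scaled to the same total in every library, and can be compared between genes. CPM is the count scaled to library size by edgeR's TMM method, is not divided by length and is used here to compare libraries, not to set the level of one gene against another.

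HCT116 is an established human colorectal cancer line. The shControl group held 3 biological replicates with a non-target hairpin, and the shSTBD1 group held 3 with a hairpin against STBD1, whose protein links glycogen to autophagy. Both groups received the hairpin by lentivirus and drug selection, and each group carried a single hairpin sequence, so an effect of losing STBD1 and another effect of that hairpin cannot be told apart. The labels do not say whether the replicates came from separate infections. The p-values therefore measure the spread between these samples.

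Semaphorins are ligands that carry a conserved sema domain. Class 3 semaphorins are secreted, classes 4 to 6 span the membrane and class 7 is held by a lipid anchor. Most of them signal through plexins, whose inner part regulates small GTPases and, through them, the cytoskeleton and adhesion. Class 3 semaphorins other than SEMA3E usually need a neuropilin, which binds the ligand while the plexin transmits the signal. Neuropilins also bind VEGF, and NRP1 is known for roles in vessel growth and tumour cell migration.

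The libraries held between 17689097 and 21668274 expected counts. STBD1 was at 16.2, 15.7 and 14.4 CPM in shControl replicates 1 to 3 and at 11.6, 9.07 and 9.16 CPM in shSTBD1, which is -0.64 ± 0.098 (SE) on the log2 scale (adjusted p = 2.9e-04 by the quasi-likelihood test of edgeR, adjusted as Benjamini and Hochberg over 15566 tested genes). The STBD1 RNA was thus reduced by 35.8% rather than removed. All 6 epithelial markers listed for the line (EPCAM, CDH1, KRT8, KRT18, KRT19 and CLDN4) were expressed, with a summed level of 2920 to 2950 TPM in shControl and 3310 to 3450 TPM in shSTBD1, so this sum moved with the group. The 5 endothelial markers summed to at most 0.69 TPM and the 5 leukocyte markers to at most 0.99 TPM in any library, with PTPRC and CD3E at 0 counts. Of 6 fibroblast markers only COL1A1 was expressed, LUM was at 0, and the sum ran from 15.2 to 20.1 TPM in shControl and from 17.3 to 20.8 TPM in shSTBD1. The neuronal list reached 135 to 149 TPM in shControl and 152 to 157 TPM in shSTBD1. RBFOX3, SYP and TUBB3 of its 4 genes were expressed, and SNAP25 was below 0.5 TPM. The highest mean of a single gene in this list was 146 TPM, so nearly all of the sum came from that gene. The part of these shifts in the results below was not tested. In RNA from whole cultures, fewer cells that express a gene and less RNA per cell cannot be told apart.

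In the RNA of these cells the system was weighted to plexins and membrane semaphorins, with little neuropilin. Of the 31 members 24 were expressed: both neuropilins, 16 semaphorins and 6 plexins. PLXNB2, a receptor for class 4 semaphorins, had the highest level, from 81.9 to 96.7 TPM over the 6 libraries. SEMA4B, a transmembrane semaphorin, came next with 48.9 to 59.2 TPM. PLXNA3 and SEMA6B followed at 34.6 to 45.5 and 34.2 to 40.7 TPM, and their ranges overlapped. PLXND1, PLXNB1 and PLXNA1 lay between 19.4 and 30.3 TPM and their ranges over the libraries overlapped, although PLXND1 was above PLXNA1 within each of the 6 libraries. Among the 30 neighbouring pairs in the order of mean levels, 6 had ranges over the libraries that did not overlap.

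The members just above the limit of 0.5 TPM were SEMA3E with a mean of 0.702 TPM and SEMA3D with 1.16 TPM. Just below it were PLXNC1, a receptor for SEMA7A, at 0.482 TPM and PLXNA2 at 0.347 TPM. The lowest 5 members held too few counts to be tested. SEMA4A had a mean of 0.0967 TPM, SEMA5B 0.05 TPM and PLXNA4 0.00167 TPM. SEMA5A and SEMA6D had 0 counts in all 6 libraries, which allows up to 3 counts per library, or 0.138 to 0.169 CPM, for counting error only. No class 5 semaphorin was expressed.

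The summed level of all members was 425, 414 and 408 TPM in shControl and 412, 412 and 409 TPM in shSTBD1. The plexins made up 214, 198 and 199 TPM of this in shControl and 197, 203 and 197 TPM in shSTBD1. The neuropilins made up 4.67, 5.20 and 3.22 TPM in shControl and 2.19, 2.33 and 3.67 TPM in shSTBD1, or between 0.531% and 1.25% of the family. Class 3 semaphorins summed to 45.0, 47.8 and 44.6 TPM in shControl and 40.8, 39.0 and 41.5 TPM in shSTBD1, with no overlap. Class 4 summed to 98.3, 103 and 105 TPM against 110, 107 and 108 TPM, also without overlap. These class sums were not tested. The total of the family stayed between 408 and 425 TPM.

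NRP1 (ENSG00000099250), the co-receptor of SEMA3A and of VEGF, lies on the minus strand of chromosome 10 from 33177492 to 33336262 in GRCh38. Its level was 9.04, 8.53 and 8.85 CPM in shControl replicates 1 to 3 and 3.23, 2.90 and 3.48 CPM in shSTBD1 replicates 1 to 3. The groups were far apart, and the spread within each was small beside the gap, at 8.80 ± 0.26 against 3.20 ± 0.29 CPM (SD, n = 3 libraries per group). The log2 fold change was -1.46 (standard error 0.13), a level 2.75-fold higher in shControl. These values are not corrected for the choice of the family by the fall of NRP1. Of the 15566 tested genes, 13 had a log2 fold change as low or lower, with NRP1 itself counted among them. On the TPM scale NRP1 was at 3.47, 3.21 and 2.49 in shControl and 0.94, 0.81 and 1.65 in shSTBD1, again without overlap, although shSTBD1 replicate 3 was closer to shControl than in counts. An antisense gene, ENSG00000238258, shares 4.87% of the exon bases of NRP1, and its mean level was 0.0121 CPM.

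NRP2 (ENSG00000118257, chromosome 2, 205681990 to 205798133, plus strand) is the neuropilin preferred by SEMA3F. Its level was 2.44, 2.06 and 1.92 CPM in shControl and 2.62, 2.67 and 2.67 CPM in shSTBD1. All shSTBD1 values lay above all shControl values, but the log2 fold change of 0.31 (standard error 0.19, 95% interval -0.10 to 0.72) did not pass the test (adjusted p = 0.31 in edgeR's quasi-likelihood test). In TPM the groups of NRP2 overlapped, at 1.20, 1.99 and 0.73 against 1.25, 1.52 and 2.02. Of the neuropilin counts, which are not divided by length and so serve only to compare the groups, NRP1 took 78.7%, 80.5% and 82.2% in shControl and 55.1%, 52.1% and 56.6% in shSTBD1. As a share of neuropilin TPM it took 74.3%, 61.7% and 77.3% in shControl and 42.9%, 34.8% and 45.0% in shSTBD1. Per length, NRP1 was thus above NRP2 in every shControl library and below it in every shSTBD1 library. This order rests on estimated transcript lengths whose highest over lowest was 1.65 for NRP1 and 2.21 for NRP2. It also rests on 34 to 58 counts of NRP2 per library.

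Among the members other than NRP1, 25 were tested and 4 passed an adjusted p of 0.05, with SEMA3A and SEMA3C lower and SEMA4B and SEMA7A higher in shSTBD1. This is 16.0% of the tested members, against 15.8% of all tested genes. In the lower direction 2 of 25 passed, against 7.54% of all tested genes, and in the higher direction 2 of 25, against 8.22%. The share called in the family was therefore close to that of the whole transcriptome. The median log2 fold change of the 25 members was -0.046 and that of all tested genes 0.0023. In 9 of the 25, or 36.0%, the CPM of the groups did not overlap, against 33.6% of all tested genes. In this fit on counts, 0 of the tested members apart from NRP1 had an absolute log2 fold change above 0.5. The share of all genes above 0.5 is not given, so this count does not set the family apart.

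All 4 calls were lost when the transcript length estimated in each library entered the comparison, by offsets for effective length or through TPM itself, tested in limma as log2(TPM + 1) or log2(TPM + 0.1). Their log2 fold changes stayed close to those from counts, at -0.29 for SEMA3A, -0.30 for SEMA3C, 0.19 for SEMA4B and 0.28 for SEMA7A with the offsets. The adjusted p of these 4 members then ran from 0.080 to 0.27, in edgeR for the offsets and in limma for TPM. At an unadjusted p under 0.05, there were 7 of 25 members with the offsets and 6 of 23 with either limma setting. No share over all genes is given for this unadjusted p, so the 7 and 6 are not a result about the family. DESeq2 on the counts called 4 at the adjusted threshold. Under the offsets and the limma settings the calls over all genes went from 2453 to between 268 and 511.

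The sequences just before the transcription start were sought for NRP1 and for the members past the threshold in the fit on counts. RefSeq's table for GRCh38.p14 held such windows for SEMA3C, SEMA4B and SEMA7A, but not for NRP1 and SEMA3A. Each is the 250 bases upstream of the start that RefSeq gives for the gene, read 5′ to 3′ on the gene's strand, with matches to the GC box GGGCGG or its reverse complement CCGCCC in capitals. The windows are chr7:80922390-80922639 (minus strand), chr15:90201080-90201329 (plus strand) and chr15:74433959-74434208 (minus strand), and none of them holds exon bases of its gene in GENCODE release 44. The RefSeq start of SEMA4B lies inside the span that GENCODE gives this gene, so its window is intronic there.
SEMA3C: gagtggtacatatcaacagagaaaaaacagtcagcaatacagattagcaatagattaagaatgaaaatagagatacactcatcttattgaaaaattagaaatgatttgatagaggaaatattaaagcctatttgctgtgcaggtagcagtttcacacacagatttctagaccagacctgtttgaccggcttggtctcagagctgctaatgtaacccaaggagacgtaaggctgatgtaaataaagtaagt
SEMA4B: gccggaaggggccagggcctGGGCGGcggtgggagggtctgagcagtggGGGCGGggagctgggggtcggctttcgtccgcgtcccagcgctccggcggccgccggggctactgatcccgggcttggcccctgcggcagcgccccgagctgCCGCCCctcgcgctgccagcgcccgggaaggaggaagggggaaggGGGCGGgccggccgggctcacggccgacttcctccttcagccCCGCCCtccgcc
SEMA7A: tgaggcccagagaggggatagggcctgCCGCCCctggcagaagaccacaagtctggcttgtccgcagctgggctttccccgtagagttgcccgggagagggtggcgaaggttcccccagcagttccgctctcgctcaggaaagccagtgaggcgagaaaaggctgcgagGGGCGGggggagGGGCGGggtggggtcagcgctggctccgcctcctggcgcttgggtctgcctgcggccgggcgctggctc
The window of SEMA3C held 0 GC boxes and 2 CpG dinucleotides at a GC content of 36.4%. That of SEMA4B held 5 GC boxes and 29 CpG at 79.2% GC, and that of SEMA7A held 3 and 17 at 70.0%. Of 35116 RefSeq windows of the same length, 42.6% held at least 1 GC box, and their medians were 58.0% GC and 11 CpG. A match is a description of the letters and not a bound site. With no window for NRP1 and SEMA3A, these sequences do not compare members that fell with members that rose.

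The class 3 semaphorins are the secreted ligands of the neuropilins, and all 7 were expressed and tested. Of these, 2 fell and 0 rose, or 28.6% of a class of 7 against 15.8% of all tested genes, and the other 5 did not pass. A class of 7 genes is too small to differ from that share. SEMA3A (ENSG00000075213, chromosome 7, 83955777 to 84492724, minus strand), the NRP1 ligand known for repelling axons, was at 20.6, 19.0 and 18.2 CPM in shControl and 15.7, 16.3 and 14.0 CPM in shSTBD1. The groups did not overlap, at 19.3 ± 1.21 against 15.3 ± 1.21 CPM (SD, n = 3). SEMA3A fell by 0.33 on the log2 scale (standard error 0.078, adjusted p = 0.0086 in edgeR's quasi-likelihood test). Without shSTBD1 replicate 3, the lowest library for this gene, the log2 fold change was -0.27 and the adjusted p in edgeR 0.056.

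SEMA3C (ENSG00000075223, chromosome 7, 80742538 to 80922359, minus strand), a ligand that acts through both neuropilins, was at 42.7, 47.8 and 46.7 CPM in shControl and 39.6, 35.8 and 37.7 CPM in shSTBD1. Every shSTBD1 library lay below every shControl library, with means of 45.7 ± 2.69 and 37.7 ± 1.91 CPM (SD, n = 3). SEMA3C fell by 0.28 on the log2 scale (standard error 0.056, adjusted p = 0.0026 in the same edgeR test). In TPM, SEMA3C was at 11.95, 12.74 and 12.07 in shControl and 10.70, 8.74 and 10.24 in shSTBD1, and SEMA3A at 5.91, 5.32 and 4.77 against 4.25, 4.5 and 4.26, so neither gene overlapped on that scale. The TPM groups did not overlap in 8 of the 24 expressed members. These were NRP1, by whose fall the family was chosen, and SEMA3A, SEMA3C, SEMA4B, SEMA4C, SEMA4G, SEMA7A and PLXNB2. Over all genes with a mean of at least 0.5 TPM the share was 23.6%. With NRP1 counted and so few members, the 8 are not a result about the family.

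SEMA3F, the NRP2 ligand with tumour-suppressive activity in several cancers, had a mean of 12.1 TPM in shControl, beside 12.3 TPM for both SEMA3B and SEMA3C, and of 11.9 TPM in shSTBD1, beside 9.98 and 9.89 TPM, and the ranges of the 3 genes overlapped. SEMA3F was at 28.9, 27.1 and 27.4 CPM in shControl and 26.4, 27.2 and 26.6 CPM in shSTBD1. These values overlapped, and the log2 fold change of -0.056 had a 95% interval of -0.17 to 0.063 (adjusted p = 0.55 in edgeR). SEMA3B, its neighbour on chromosome 3 and another candidate tumour suppressor, had a wide spread within shControl, at 13.6, 20.5 and 17.6 CPM, against 14.5, 15.5 and 16.1 CPM in shSTBD1. Its log2 fold change was -0.17 (adjusted p = 0.35 in edgeR). Without shControl replicate 1, the lowest, it became -0.32 and passed (adjusted p = 0.011 in edgeR), and without shControl replicate 2, the highest, it was -0.011 (adjusted p = 0.96 in edgeR), so the value rested on these libraries. SEMA3D, SEMA3E and SEMA3G differed by 0.18, 0.078 and 0.027 on the log2 scale, with standard errors of 0.12 to 0.21, and did not pass (adjusted p from 0.50 to 0.92 in edgeR).

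SEMA3A, SEMA3C, SEMA3D and SEMA3E lie on chromosome 7 between 80742538 and 85187056, and SEMA3B, SEMA3F and SEMA3G lie on chromosome 3. Both class 3 members that passed are thus in the chromosome 7 group, whose other 2 members, at 1.81 to 4.76 CPM in any library, were measured with wider errors. The 31 members lie on 12 chromosomes, with 7 on chromosome 3 and 5 on chromosome 7.

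The transmembrane class 4 semaphorins bind B-type plexins and other receptors, and 5 of the 6 were expressed and tested. SEMA4B alone passed, and it rose, which is 20.0% of the 5 against 15.8% of all tested genes. SEMA4B (ENSG00000185033, chromosome 15, 90160604 to 90229679, plus strand) was at 103, 101 and 107 CPM in shControl and 122, 118 and 115 CPM in shSTBD1. The groups did not overlap, at 104 ± 2.74 against 118 ± 3.38 CPM (SD, n = 3). The log2 fold change was 0.19 (standard error 0.036, adjusted p = 0.0019 in edgeR's quasi-likelihood test), or 1.14-fold.

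SEMA4C, a ligand of PLXNB2, was at 39.5, 38.5 and 38.9 CPM in shControl and 32.2, 36.1 and 37.2 CPM in shSTBD1. The groups did not overlap, but the log2 fold change of -0.15 (standard error 0.057) did not pass (adjusted p = 0.092 in edgeR). SEMA4D, the ligand of PLXNB1, did not pass at 0.059 on the log2 scale (adjusted p = 0.60 in edgeR), nor did SEMA4F at 0.077 (0.50) or SEMA4G at 0.038 (0.70). For SEMA4D the direction turned with the length-aware settings, to between -0.098 and -0.092. SEMA4G shares 22.9% of its exon bases with MRPL43 on the opposite strand, and the counting is not stated to use strand.

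SEMA7A (ENSG00000138623, chromosome 15, 74409289 to 74433958, minus strand), the lipid-anchored semaphorin that acts through PLXNC1 and through integrins with the beta 1 chain, was at 28.8, 28.9 and 28.0 CPM in shControl and 34.5, 33.6 and 35.1 CPM in shSTBD1. The groups did not overlap and each was narrow, at 28.6 ± 0.52 against 34.4 ± 0.77 CPM (SD, n = 3). The log2 fold change was 0.27 (standard error 0.052, adjusted p = 0.0023 in edgeR's quasi-likelihood test), or 1.20-fold. Of its receptors, PLXNC1 was below 0.5 TPM in the mean, at 2.34, 1.82 and 1.64 CPM in shControl and 2.13, 1.70 and 1.77 CPM in shSTBD1, while ITGB1 was at a mean of 227 TPM.

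Class 6 semaphorins are membrane ligands of A-type plexins, and 3 of 4 were expressed. In edgeR's test 0 of the 3 passed the adjusted threshold, against 15.8% of all tested genes, and 3 genes are too few to differ from that share. SEMA6A alone had an unadjusted p under 0.05, and DESeq2 called 0. SEMA6B, the most abundant of them, was at 133, 114 and 114 CPM in shControl and 119, 110 and 112 CPM in shSTBD1, and these values overlapped (log2 fold change -0.078, adjusted p = 0.35 in edgeR). Without shControl replicate 1, its highest library, the log2 fold change was -0.0028. SEMA6A was at 12.7, 12.8 and 12.4 CPM in shControl and 14.4, 16.5 and 12.9 CPM in shSTBD1. Its groups did not overlap, but the log2 fold change of 0.21 (standard error 0.091) did not pass (adjusted p = 0.13 in edgeR) and was 0.11 without shSTBD1 replicate 2. SEMA6C had a log2 fold change of -0.050 (adjusted p = 0.71 in edgeR), which turned to between 0.048 and 0.071 with the length-aware settings.

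**Figure D1:**
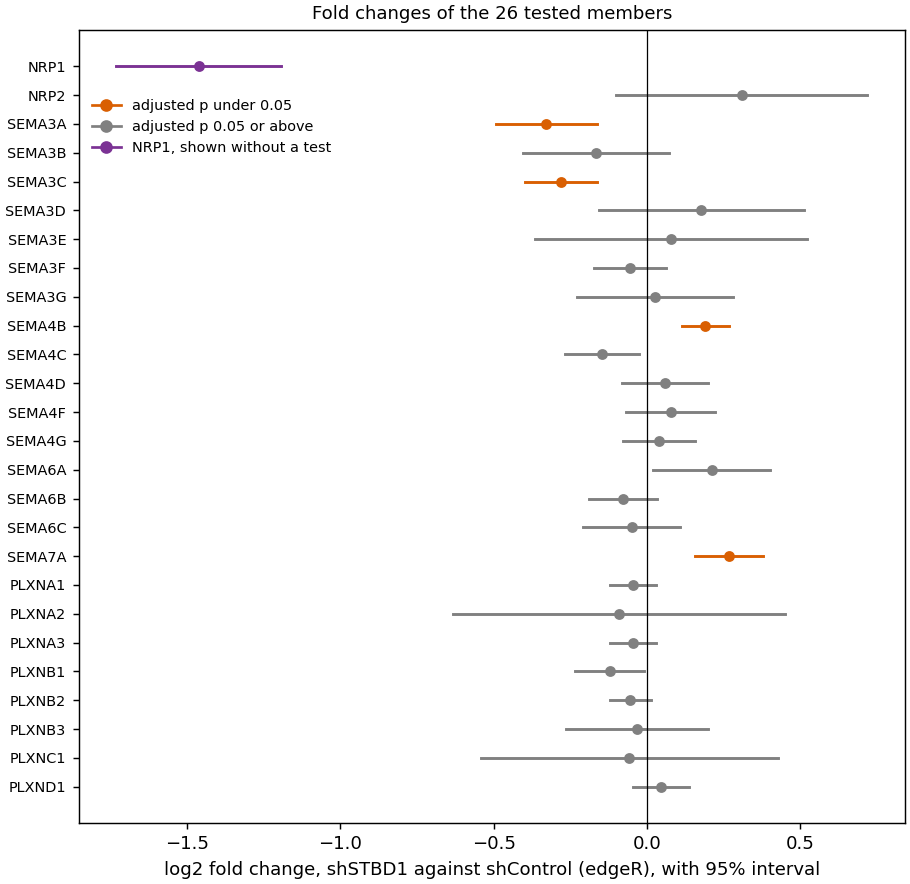
Log2 fold change of each of the 26 tested members, shSTBD1 against shControl, with its 95% interval from edgeR. The interval drawn for NRP1 is not corrected for its selection and is no test. NRP1 lies at -1.46, and since the family was chosen by its fall, its distance from the others is no result. The other members lie between -0.33 and 0.31, and the 8 plexins between -0.12 and 0.045.

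The plexins are the signalling receptors, and 8 of the 9 were tested. In edgeR's quasi-likelihood test 0 of the 8 passed, against 15.8% of all tested genes, and so few genes do not set the plexins apart. Their adjusted p-values ran from 0.13 to 0.90 and their log2 fold changes from -0.12 to 0.045. At an unadjusted p under 0.05 there was 1, PLXNB1. DESeq2 called 0 and gave no adjusted p for PLXNA2 and PLXNC1. The intervals that follow are for counts, with no term for length. For PLXNB2, at 396, 372 and 381 CPM in shControl and 368, 372 and 367 CPM in shSTBD1, the 95% interval of the log2 fold change was -0.12 to 0.012. PLXNA1, a receptor for class 3 semaphorins with neuropilins, was at 148, 149 and 149 CPM against 145, 149 and 137 CPM, with an interval of -0.12 to 0.030. PLXNA3, the partner of SEMA3F signalling with NRP2, was at 93.2, 92.0 and 91.2 CPM against 88.6, 88.9 and 90.3 CPM, with an interval of -0.12 to 0.028, and its direction turned to between 0.077 and 0.099 in the length-aware settings. PLXND1, the receptor that binds SEMA3E without a neuropilin, was at 67.9, 66.3 and 64.8 CPM against 65.1, 70.9 and 69.1 CPM, with an interval of -0.046 to 0.14.

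PLXNB1, the receptor of SEMA4D, was at 44.3, 48.7 and 49.4 CPM in shControl and 44.5, 41.7 and 44.7 CPM in shSTBD1. Its log2 fold change was -0.12 (adjusted p = 0.13 in edgeR). Without shControl replicate 1 it was -0.17 and passed (adjusted p = 0.022 in edgeR), so this library decided the call. PLXNB3 was at 7.01 to 8.14 CPM in any library and had a log2 fold change of -0.032 (adjusted p = 0.88 in edgeR). It shares 20.4% of its exon bases with SRPK3 on the same strand, whose mean was 1.80 CPM. PLXNA2 and PLXNC1 held few counts, and their 95% intervals ran from -0.63 to 0.45 and from -0.54 to 0.43, so sizeable changes in either direction were not detectable at this depth. With the length offsets the log2 fold change of PLXNA2 was -1.10 and that of PLXNC1 -0.31, and that of PLXNB3 ran from -0.46 to -0.35 over the 3 length-aware settings. None of these passed, with adjusted p-values in edgeR or limma of 0.18 for PLXNA2, 0.64 for PLXNC1 and 0.35 to 0.43 for PLXNB3. The offsets also gave 0.16 for PLXND1, -0.052 for PLXNB1 and -0.10 for PLXNB2 (adjusted p = 0.50, 0.81 and 0.39 in edgeR).

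Other genes of the pathway were taken from a list of 58, drawn up with earlier results of these data known. Of these, 50 were tested and 11 passed an adjusted p of 0.05 in edgeR, 7 higher and 4 lower in shSTBD1. This is 22.0%, against 15.8% of all tested genes. Since the list was not independent of the data, this share and those of its parts below are descriptions and not an enrichment. With the length offsets 1 of 50 tested genes of the list passed, and in limma with either amount added to TPM 1 of 49, each time MET. Over all genes the offsets called 511 of 15566, and limma called 271 of 16222 with 1 added and 268 with 0.1 added. Beside these numbers, 1 gene does not set the list apart. Among 8 ligands and receptors of the VEGF family, which share neuropilins with the semaphorins, 5 were tested. In edgeR 0 of the 5 passed, against 15.8% of all tested genes, and 0 had an unadjusted p under 0.05. In DESeq2 0 passed. VEGFA had a mean of 40.8 TPM and a log2 fold change of 0.012 (adjusted p = 0.89 in edgeR). The VEGF receptors were near the floor, with means of 0.00333 TPM for FLT1, 0.147 TPM for KDR and 0.15 TPM for FLT4.

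Of 11 genes for other receptors that associate with plexins or bind semaphorins, 7 were tested, 1 fell and 1 rose, or 28.6% against 15.8% of all tested genes. MET, the receptor of hepatocyte growth factor and a partner of B-type plexins, fell from 420, 387 and 400 CPM in shControl to 345, 339 and 330 CPM in shSTBD1, by 0.25 on the log2 scale (standard error 0.035, adjusted p = 1.1e-04 in edgeR). ITGB1, the integrin chain through which SEMA7A can act, rose from 576, 573 and 584 to 638, 632 and 641 CPM, a log2 fold change of 0.14 (adjusted p = 0.0033 in edgeR). The other 5 did not pass. CD72, a receptor of SEMA4D on lymphocytes, was at 0.622, 0.239 and 0.395 CPM in shControl and 1.23, 0.644 and 0.888 CPM in shSTBD1, without overlap but from few counts (log2 fold change 1.11, standard error 0.41, adjusted p = 0.076 in edgeR). L1CAM, ITGA1, ERBB2 and PTK7 stood between -0.00050 and 0.11 on the log2 scale (adjusted p from 0.55 to 1.0 in edgeR).

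Of 35 genes for proteins that bind the receptor tails or act after them, 34 were tested, 6 rose and 3 fell, or 26.5% against 15.8% of all tested genes. GIPC1, which binds the tail of NRP1, rose from 89.2, 91.2 and 98.4 CPM in shControl to 105, 113 and 109 CPM in shSTBD1 (log2 fold change 0.23, adjusted p = 0.0014 in edgeR). FYN, a Src-family kinase used in SEMA3A signalling, rose from 9.30, 9.29 and 8.70 to 12.1, 13.2 and 13.8 CPM (log2 fold change 0.52, adjusted p = 7.5e-04 in edgeR). RRAS, a small GTPase that plexins inactivate, rose by 0.34 on the log2 scale from a mean of 29.9 ± 2.48 to 37.9 ± 2.51 CPM (SD, n = 3, adjusted p = 0.0020 in edgeR). SH3BP1, MICAL1, an enzyme that oxidises actin, and PAK1, a kinase activated by RAC1, rose by 0.29, 0.20 and 0.16 on the log2 scale (adjusted p = 0.0020, 0.010 and 0.019 in edgeR). ROCK2, a kinase activated by RHOA, MICALL1 and TNIK fell, at -0.17, -0.23 and -0.20 on the log2 scale (adjusted p = 0.0031, 0.0038 and 0.0038 in edgeR). The GTPases RHOA and RAC1 stood at 0.0033 and 0.025 on the log2 scale and did not pass (adjusted p = 0.96 and 0.75 in edgeR). Of the 4 proteases that process semaphorins or plexins in this list, FURIN, ADAM10, ADAM17 and MMP14, 0 passed, against 15.8% of all tested genes. Their adjusted p-values in edgeR were 0.061 to 0.90. An unadjusted p under 0.05 was found for 3 of them in edgeR, and for 1 in DESeq2, with the length offsets and in each limma setting. The share of all genes at this unadjusted p is not given, so these counts are not a result about the proteases. At the adjusted threshold DESeq2 called 0.

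The files also hold a readout that the fold changes in counts do not use, the abundance-weighted mean length of each gene's transcripts, which moves when the estimated mix of isoforms moves. Length values did not overlap between groups in 8.95% of all genes with a mean of at least 0.5 TPM. Among the 24 expressed members they did not overlap in 1, and 24 genes are too few to differ from that share. The 1 member was SEMA4G, at 2672, 2594 and 2598 bases in shControl and 2412, 2444 and 2307 bases in shSTBD1 (two-sided exact permutation test over the 6 libraries, p = 0.1, the smallest p that 3 against 3 allow). Its TPM was 14.85, 15.19 and 14.26 against 16.37, 16.27 and 17.20, without overlap, while its CPM was 31.9, 30.1 and 28.8 against 30.7, 31.5 and 31.1, with overlap. SEMA4G shares 22.9% of its exon bases with MRPL43, which had a mean of 113 TPM. The part of this overlap in the length estimate was not tested.

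The length estimates differed between libraries of the same group as well. The highest length over the lowest had a median of 1.25 in the 24 expressed members and of 1.09 in all genes with a mean of at least 0.5 TPM. For NRP1 the mean length was 3181, 3379 and 4357 bases in shControl and 4201, 4297 and 2638 bases in shSTBD1, a ratio of 1.65 with overlapping groups (exact permutation test, p = 1.0). For NRP2 it was 2532, 1483 and 3277 bases in shControl and 2659, 2240 and 1764 bases in shSTBD1, a ratio of 2.21. PLXNA3 had 2457 bases in shSTBD1 replicate 2 and 3072 to 3283 bases in the other libraries, and its TPM was 45.5 in that library and 34.6 to 38.4 in the others, while its CPM ran from 88.6 to 93.2 over the 6 libraries.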

How the data were processed

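RNA-seq of 3 shControl and 3 shSTBD1 replicates of HCT116 cells was read from the tables deposited for each library. The authors removed low-quality reads, used STAR 2.7.1a to align to Hg38 under Ensembl gene models, and quantified genes by RSEM 1.3.1. The expected counts deposited by the authors are not normalized, and the TPM values deposited by the authors were scaled by RSEM to the same total per library. Whether counting used strand is not given in the sources used here. Genes were matched by Ensembl ID, and positions are from GENCODE release 44 on GRCh38, the same build.

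Expected counts were rounded, filtered by filterByExpr, scaled by TMM and compared by the quasi-likelihood test of edgeR 4.0.16 in R 4.3.3 with group as the only term, with Benjamini-Hochberg adjustment over all 15566 tested genes. Standard errors came from the fold change and F statistic. Scripts were tested on simulated data. Totals were 17689097 to 21668274 expected counts per library. Replicates differed by more than sampling noise. As chi-square per degree of freedom over tested genes, shControl replicate 1 differed from replicates 2 and 3 by 6.2 and 4.93. The other pairs within a group stood at 1.65 to 2.02. The floor given for 0 counts covers counting error only. Alternatives used DESeq2 1.42.0, limma 3.58.1, other scalings and filters, length offsets, a replicate block and leaving out each library. Members and lists were chosen with earlier results of these data known. The text gives in full both neuropilins, each member past the threshold, and the most abundant member of each class and plexin subfamily, with other members added after their values were seen. Pathway genes are named where past the threshold, and others among them were chosen after their values were seen.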

Additional observations from a re-analysis of the deposited data

How the results depend on the processing

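Over 16 alternatives, 364 of 396 values of the members other than NRP1 kept their direction and side of the threshold, 13 lost and 2 gained a call, and 17 reversed. The 364 include the DESeq2 values of NRP2, SEMA3E, PLXNA2 and PLXNC1, which had no adjusted p and kept their direction only. The log2 fold change of NRP1 ran from -1.53 to -0.94, the latter in limma on log2(TPM + 1). Adding 1 to levels of 0.81 to 3.47 TPM makes the log2 difference smaller. With 0.1 added it was -1.40, and with the length offsets -1.47. Of the 25 other members, 4 passed in the reported fit (2 higher, 2 lower). With offsets for effective length 0 passed (0 higher, 0 lower), as in limma on log2(TPM + 1) and log2(TPM + 0.1). The log2 fold changes of the 4 were then -0.29 to -0.24 for SEMA3A, -0.31 to -0.29 for SEMA3C, 0.17 to 0.19 for SEMA4B and 0.25 to 0.28 for SEMA7A. Leaving out one library gave 3 to 6 members, 2 higher and 1 to 4 lower. The 6 came without shControl replicate 1, the library that differed most from its replicates. The number over all genes, 2453, became 511 with length offsets, 271 with limma on log2(TPM + 1), 268 with limma on log2(TPM + 0.1), and 1409 to 2577 with a library left out. The pathway list went from 11 genes to 1 in each of the length and TPM settings and to between 9 and 14 with a library left out. The cause of the lost calls was not tested.

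None of the reversed members passed the threshold. With length offsets, limma on log2(TPM + 1) and limma on log2(TPM + 0.1) in turn, SEMA4D went to -0.093, -0.092 and -0.098, SEMA6C to 0.071, 0.048 and 0.056, and PLXNA3 to 0.099, 0.077 and 0.079. Without shControl replicate 1, PLXNC1 was 0.099. Without shControl replicate 2, SEMA3G was -0.038. Without shControl replicate 3, PLXNA2 was 0.031 and PLXNB3 0.040. Without shSTBD1 replicate 1, SEMA3G was -0.054. Without shSTBD1 replicate 2, PLXNA2 was 0.084 and PLXNC1 0.0078. Without shSTBD1 replicate 3, SEMA3E was -0.032. At the other end of the values with a library left out, SEMA3E reached 0.21, SEMA3G 0.091, PLXNA2 -0.25, PLXNB3 -0.070 and PLXNC1 -0.16.

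Same-numbered libraries correlated in their deviations from the group means at 0.071, 0.068 and -0.0084, so the numbers were not taken to pair them. With the replicate number as a block, 4 members passed (2 higher, 2 lower), as did 11 pathway genes and 2579 of all tested genes. The number of expressed members was 24 with the limit of 0.5 TPM and ran from 23 to 26 over the other limits and libraries left out. PLXNA2, PLXNC1, SEMA3E and NRP2 had the fewest counts among tested members, with standard errors of 0.19 to 0.26.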
